A study of Mus musculus with 4 samples.

Results

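With the Novus antibody, TOP2B had 795 promoter peaks that no peak of the Santa Cruz antibody overlapped. These Novus-only promoter peaks were defined by both peak lists and by gene position: a Novus peak was kept when it shared no base with any Santa Cruz peak and when its centre lay within 1 kb of a transcription start of a protein-coding transcript (GENCODE M1 on mm9). They were 795 of the 3564 Novus peaks (22.3%, 95% interval 20.9 to 23.7) and of the 2570 Novus-only peaks (30.9%, 29.1 to 32.8). Of the 994 common peaks, that is Novus peaks that share at least 1 base with a Santa Cruz peak, 263 were at promoters (26.5%, 23.7 to 29.3).

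The study mapped type II topoisomerases by ChIPseq in thymocytes of wild-type C57BL/6 mice of 4 to 6 weeks, obtained by breaking up the thymus mechanically and fixed with formaldehyde. Of the 4 libraries, 2 were made against TOP2B, with the Santa Cruz and the Novus Biologicals antibody. The TOP2A library and the IgG control library were not analysed here. No sort is named, so that the suspension can hold all stages of thymocytes and any other loose cell of the thymus. With 1 library per antibody, a difference between the lists can come from the antibody or from the library, and these cannot be told apart. The lists give positions without heights or read numbers, so the depth behind a single peak is unknown, and all intervals and tests cover counting error over peaks only. The Santa Cruz list has 17753 distinct peaks, and the width is fixed within each list and nearly equal between them.

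TOP2B is a type II topoisomerase of dividing and resting cells alike. It cuts both strands of a DNA duplex, stays covalently bound to the ends while a second duplex is passed through the gap, and seals the break again, which removes supercoils, knots and tangles. Promoters are the stretches around a start where RNA polymerase II is loaded, and most housekeeping genes have a promoter inside a CpG island, a GC-rich stretch that has kept its CpG dinucleotides. TOP2B is known to sit at active promoters and, together with CTCF and cohesin, at the anchors of chromatin loops.

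A few peaks show the range of sequence under the Novus-only peaks, some of which have a Santa Cruz peak within 100 bp. They were taken from peaks that overlap no annotated untranslated exon. Each is a whole Novus peak in mm9, written 5′ to 3′ on the strand of its gene. The first 3 are shown because they hold a match without mismatch to the CTCF core, the central part of the sequence that the loop-anchoring factor CTCF reads, and capitals mark the matches, a further one with 1 mismatch overlapping the first in Mycl1. They belong to Mycl1, which encodes the transcription factor L-Myc (plus strand, chr4:122672662-122672856), to Ahcyl2, which encodes a relative of adenosylhomocysteinase (plus strand, chr6:29803412-29803606), and to Frmd6, which encodes a FERM domain protein (plus strand, chr12:71926561-71926755).
Mycl1: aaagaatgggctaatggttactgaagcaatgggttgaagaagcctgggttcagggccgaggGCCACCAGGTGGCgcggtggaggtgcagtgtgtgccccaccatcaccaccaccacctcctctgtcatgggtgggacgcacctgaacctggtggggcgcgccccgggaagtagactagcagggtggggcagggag
Ahcyl2: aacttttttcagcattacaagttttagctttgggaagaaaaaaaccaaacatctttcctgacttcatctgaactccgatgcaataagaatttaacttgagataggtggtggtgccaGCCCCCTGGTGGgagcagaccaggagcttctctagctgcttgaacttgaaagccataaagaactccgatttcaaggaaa
Frmd6: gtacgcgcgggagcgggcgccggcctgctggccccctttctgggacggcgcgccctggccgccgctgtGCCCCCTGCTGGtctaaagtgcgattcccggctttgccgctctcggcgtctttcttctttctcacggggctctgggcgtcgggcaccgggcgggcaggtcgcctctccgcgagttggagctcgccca

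The next 3 are shown for the GC box, the GGGCGG element that SP1-type factors read, here found on either strand and in capitals. They are the peaks upstream of Setd3, which encodes a histidine methyltransferase of actin (minus strand, chr12:109417592-109417786), of Tbpl1, which encodes a relative of the TATA-binding protein (minus strand, chr10:22451265-22451459), and of Pds5b, which encodes a regulator of cohesin (plus strand, chr5:151476026-151476220). The Setd3 peak holds 4 GC boxes, and the Tbpl1 and Pds5b peaks hold 2 each.
Setd3 upstream: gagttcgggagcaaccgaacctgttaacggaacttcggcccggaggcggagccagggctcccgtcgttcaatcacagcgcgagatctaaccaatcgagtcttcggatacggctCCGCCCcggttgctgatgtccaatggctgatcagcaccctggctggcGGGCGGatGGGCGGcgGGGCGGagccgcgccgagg
Tbpl1: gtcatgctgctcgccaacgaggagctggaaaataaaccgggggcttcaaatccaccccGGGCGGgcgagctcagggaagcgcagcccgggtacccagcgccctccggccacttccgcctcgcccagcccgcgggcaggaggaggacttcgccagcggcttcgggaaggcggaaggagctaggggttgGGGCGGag
Pds5b: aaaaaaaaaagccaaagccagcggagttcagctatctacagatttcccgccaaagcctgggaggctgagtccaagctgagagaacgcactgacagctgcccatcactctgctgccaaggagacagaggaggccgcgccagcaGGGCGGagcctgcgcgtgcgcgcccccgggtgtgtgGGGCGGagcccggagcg

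The last 4 are shown for base composition, with each CpG in capitals. They are the peak downstream of the Setd3 start (minus strand, chr12:109417021-109417215), that of Nbn, a subunit of the complex that senses double-strand breaks (plus strand, chr4:15885503-15885697), that of Prpf39, a splicing factor (plus strand, chr12:66138135-66138329), and that of Lig4, the ligase of non-homologous end joining (minus strand, chr8:9975244-9975438). The number of CpG falls from 25 in the Setd3 peak to 16 in Nbn, 5 in Prpf39 and 1 in Lig4.
Setd3 downstream: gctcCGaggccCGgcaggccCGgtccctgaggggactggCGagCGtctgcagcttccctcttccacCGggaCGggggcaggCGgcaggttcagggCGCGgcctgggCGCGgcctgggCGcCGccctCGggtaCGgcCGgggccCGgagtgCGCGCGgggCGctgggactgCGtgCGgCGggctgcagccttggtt
Nbn: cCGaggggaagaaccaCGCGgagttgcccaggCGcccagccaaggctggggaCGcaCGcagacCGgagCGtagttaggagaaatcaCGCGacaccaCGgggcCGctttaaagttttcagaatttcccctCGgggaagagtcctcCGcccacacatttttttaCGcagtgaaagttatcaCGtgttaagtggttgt
Prpf39: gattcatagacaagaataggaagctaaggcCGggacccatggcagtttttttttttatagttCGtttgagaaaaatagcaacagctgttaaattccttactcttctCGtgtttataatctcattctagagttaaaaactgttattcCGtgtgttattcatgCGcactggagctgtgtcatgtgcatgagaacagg
Lig4: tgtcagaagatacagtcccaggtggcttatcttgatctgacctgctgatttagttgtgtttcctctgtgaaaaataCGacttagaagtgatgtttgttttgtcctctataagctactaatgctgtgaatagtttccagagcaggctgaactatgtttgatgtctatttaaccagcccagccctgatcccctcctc

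Most of the Novus-only promoter peaks lay in CpG island-like sequence. Over the 500 bp around the peak centre, 583 of 795 (73.3%, 70.1 to 76.4) had a GC content of at least 50% and at least 0.6 of the CpG expected from their bases. The same held for 192 of the 263 common promoter peaks (73.0%), a difference of 0.330 percentage points (adjusted p = 1.00, 2-sided Fisher's exact test, Benjamini-Hochberg over the 44 tests made), and for 1385 of the 2426 Santa Cruz-only promoter peaks (57.1%). Against the latter the difference was 16.2 percentage points (odds ratio 2.07, adjusted p = 5.04e-15 by the same exact test). Of windows centred on the 5′-most start of each protein-coding gene, 48.1% were CpG island-like. Values given below for the starts of all genes use this start alone, whereas a peak could lie near any annotated start.

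GC content was also higher than in Santa Cruz-only promoter peaks. The median over 500 bp was 61.8% in the Novus-only promoter peaks (quartiles 56.2 and 67.3), 60.2% in the common and 58.4% in the Santa Cruz-only promoter peaks, and 57.4% at the starts of all genes. A GC content of at least 60% was found in 468 Novus-only peaks (58.9%), in 136 common peaks (51.7%) and in 1055 Santa Cruz-only peaks (43.5%). By the exact test, the difference from the Santa Cruz-only peaks passed, at 15.4 percentage points (adjusted p = 1.25e-12), and that from the common peaks, 7.16 points, did not pass (adjusted p = 0.244). The ratio of observed to expected CpG had a median of 0.766, 0.726 and 0.675 in the 3 sets.

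The peaks with the highest GC content were at Bend3, which encodes a chromatin repressor (79.6%, 290 bp downstream of the start), at Cdon, which encodes a hedgehog coreceptor (79.4%, 84 bp downstream), and at Dact1, which encodes a regulator of Wnt signalling (79.0%, 32 bp downstream). The lowest were Prpf39 (37.6%), Rnf125, which encodes a ubiquitin ligase (40.2%), and Lig4 (40.4%). All 3 of these lay far downstream of the start, by 911, 536 and 982 bp. The plot of GC content by distance shows the whole range.

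**Figure D1:**
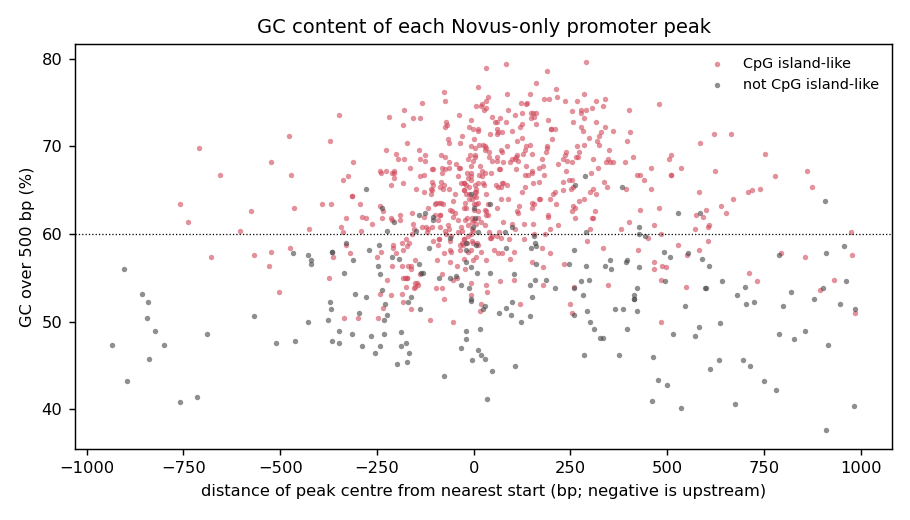
Each point is 1 of the 795 Novus-only promoter peaks, with the distance of its centre from the nearest start in bp (x axis, negative is upstream) and the GC content over 500 bp in percent (y axis). Red points are the 583 CpG island-like peaks and grey points the 212 others, and the dotted line marks a GC content of 60%.

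Within the 1 kb limit set by the rule, the Novus-only promoter peaks sat close to the start, on both sides of it. The centre lay a median of 29.0 bp downstream of the nearest start (quartiles 105 bp upstream and 259.5 bp downstream), and the median absolute distance was 173 bp, beside 136 bp in the common and 247 bp in the Santa Cruz-only promoter peaks. Of the 795 centres, 342 were upstream (43.0%, 39.5 to 46.5). The share was 51.3% of the common peaks (adjusted p = 0.145) and 46.8% of the Santa Cruz-only peaks (adjusted p = 0.244), so that neither difference in side passed the exact test.

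The stretch over 500 bp upstream held 26 of the Novus-only peaks (3.27%), whereas it held 6.84% of the common and 9.73% of the Santa Cruz-only peaks. The first 500 bp upstream held 316 (39.7%), the first 500 bp downstream 370 (46.5%), and the next stretch downstream 83 (10.4%). By 100 bp bins, 138 centres fell just upstream and 132 just downstream of the start. These stretches were described and not tested.

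A window as wide as a Novus peak around the centre held the start itself in 263 Novus-only peaks (33.1%), in 39.5% of the common peaks and in 26.6% of the Santa Cruz-only peaks. The difference from the Santa Cruz-only peaks was 6.45 percentage points (Fisher's exact test, adjusted p = 0.00609). It no longer passed the exact test with a promoter limit of 500 bp, with the 5′-most start of each gene or with 1 peak per gene (adjusted p = 0.580, 0.184 and 0.0531). With a limit of 2.5 kb it was 10.3 points (adjusted p = 1.58e-09 by the exact test). The rule that chose the promoter peaks uses the same distance to a start, so this comparison is not independent of the rule. Start and base composition went together within the Novus-only peaks: 38.4% of the 583 CpG island-like peaks covered the start, with a median distance of 146 bp, and 18.4% of the 212 others, with a median of 298 bp.

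**Figure D2:**
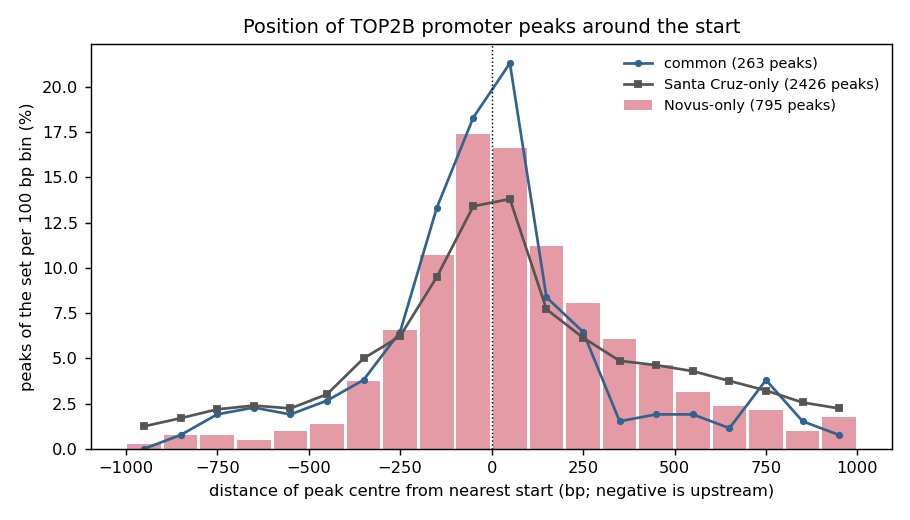
Share of each set of promoter peaks (y axis, percent) in bins of 100 bp by the distance of the peak centre from the nearest start (x axis, bp, negative is upstream), with bars for the 795 Novus-only, circles for the 263 common and squares for the 2426 Santa Cruz-only peaks. The Novus-only bars reach 17.4% just upstream and 16.6% just downstream of the start, and stay at or under 1.38% in each bin beyond 400 bp upstream.

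Examples of peaks on the start were found among genes of many roles. The peak of Blm, which encodes the RecQ helicase lost in Bloom syndrome, was centred 0 bp from the start (chr7:87679787-87679981). The peak of Zfp637 was centred 3 bp downstream, that of Psma1, an alpha subunit of the proteasome core, 4 bp upstream, and that of Med12, a subunit of the Mediator kinase module, 5 bp downstream. Just inside the 1 kb limit were Minpp1 (986 bp downstream), Fcho2 (984 bp) and Lig4 (982 bp), and just outside it were Hmgxb4 (1004 bp downstream), Hmgn1 (1004 bp upstream) and Angptl4 (1013 bp upstream).

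By annotation, 249 centres lay outside any protein-coding transcript (31.3%), 209 in an untranslated exon (26.3%), 82 in a coding exon (10.3%) and 255 in an intron (32.1%). The nearest start was the 5′-most of its gene for 498 peaks (62.6%) and, in genes with more than 1 annotated start, for 229 of 526 (43.5%). The genes had a median length of 29.5 kb, beside 33.5 kb for genes with a common peak, 26.2 kb for those with a Santa Cruz-only peak and 15.5 kb for all protein-coding genes.

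A divergent or bidirectional promoter has a start of another gene nearby on the opposite strand. Any such start within 1 kb of the nearest start, on either side, was counted, and whether the genes point apart was not checked. Such a start was found for 98 Novus-only peaks (12.3%, 10.1 to 14.8). The share was 7.22% of the common peaks (adjusted p = 0.145) and 9.15% of the Santa Cruz-only peaks (adjusted p = 0.100), neither past the exact test, and 11.0% of all gene starts have one. Such pairs included Mcm7, a subunit of the replicative helicase, with Ap4m1 (peak 7 bp upstream of the Mcm7 start), Htra2, a mitochondrial protease, with Aup1 (38 bp upstream of the Htra2 start), Yars, the tyrosyl-tRNA synthetase, with S100pbp (31 bp downstream of the Yars start), and Krit1 with Ankib1 (1 bp upstream of the Krit1 start).

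Of the 17 motifs searched on both strands in these windows of peak width, the GC box (GGGCGG) differed from the Santa Cruz-only peaks. It was in 344 Novus-only windows (43.3%), 124 common (47.1%) and 851 Santa Cruz-only windows (35.1%), and in 39.9% of windows at all gene starts. The difference of 8.19 percentage points from the Santa Cruz-only peaks passed the exact test (adjusted p = 5.89e-04), and GC content, of which these letters are a part, moved in the same direction. With a promoter limit of 500 bp it was 4.78 points (adjusted p = 0.349 by the exact test). Against the common peaks 0 motifs passed by Fisher's exact test, and 0 had an unadjusted p under 0.05. Over all features, motifs and others together, 3 had an unadjusted p under 0.05 against the common peaks, and 0 passed after adjustment.

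The CTCF core, allowing 1 mismatch, did not pass the exact test: it was in 32 Novus-only windows (4.03%), in 18 common (6.84%, adjusted p = 0.244) and in 131 Santa Cruz-only windows (5.40%, adjusted p = 0.374), and in 2.98% of windows at all gene starts. In 500 bp windows it was in 73 Novus-only peaks (9.18%, 7.27 to 11.4), of which 14 had a match without mismatch, in 17.5% of the common peaks and in 9.93% of the Santa Cruz-only peaks. With that window the difference from the common peaks was -8.31 percentage points and passed the exact test (adjusted p = 0.00474). Matches without mismatch close to a start were those of Mycl1, Ahcyl2 and Frmd6, printed above, and that of Rab32, a GTPase of lysosome-related organelles (28 bp downstream of the start).

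Core promoter and lymphoid motifs were few. TATAAA was in 3.14% of the Novus-only windows and in 8.10% of windows at all gene starts, and the CCAAT box (CCAAT) in 16.1% and 26.7%. Windows at all gene starts are centred on the start, whereas peak windows are centred on the peak, and 33.1% of the Novus-only ones hold the start. The 2 kinds of window are therefore placed differently. In common and Santa Cruz-only windows, TATAAA had 3.04% and 4.49%, and the CCAAT box 19.4% and 19.0%. The ETS letters CCGGAAG were in 7.92% (9.23% at all gene starts), the RUNX letters TGTGGTT in 2.77% (3.15%), the AP-1 letters TGANTCA in 2.39% (3.95%) and the GATA letters AGATAAG in 0.755% (1.32%). The E-box (CACGTG) was in 4.53%, YY1 (AAGATGGC) in 2.14%, the CRE variant (TGACGCA) in 1.51%, E2F (TTTCCCGC) in 1.26% and the CRE (TGACGTCA) in 1.01%, and at all gene starts in 5.45%, 3.01%, 1.93%, 0.926% and 1.91%. NRF1 (CGCATGCG) was in 0.755%, ZBTB33 (CTCGCGAG) and IRF (TTTCANTTT) in 0.629% each, and THAP11 (ACTACAATT) in 0.126%, and at all gene starts in 1.78%, 0.890%, 1.44% and 0.277%. Matches can share bases with each other, for example a GC box with E2F letters or with a CTCF core, and none of these motifs passed the exact test against either set (smallest adjusted p = 0.244).

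**Figure D3:**
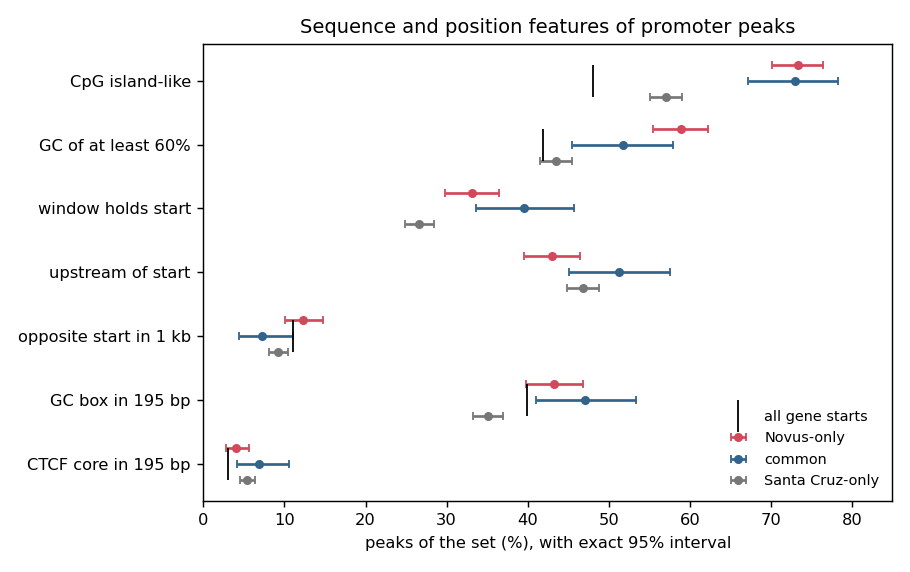
Share of promoter peaks with each feature (x axis, percent) for the Novus-only (red), common (blue) and Santa Cruz-only peaks (grey), with exact 95% intervals, and for windows at the starts of all genes (black ticks, where defined). The Novus-only interval lies above the Santa Cruz-only interval for CpG island-like sequence (73.3% and 57.1%), a GC content of at least 60% (58.9% and 43.5%), the start in the window (33.1% and 26.6%) and the GC box (43.3% and 35.1%).

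The gap to the nearest Santa Cruz peak ranged from 0 bp to 2058 kb. Measured between the edges, it had a median of 21.4 kb (quartiles 1.88 and 55.3 kb). It was under 100 bp for 55 peaks (6.92%), under 1 kb for 176 (22.1%), under 10 kb for 289 (36.4%) and under 100 kb for 699 (87.9%). Novus-only peaks inside and between genes had a gap under 1 kb for 104 of 870 and for 116 of 905, with medians of 20.4 and 19.7 kb. Because the absence of an overlap chose the peaks, these gaps are a description with no test.

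The closest neighbours touched or nearly touched. At the shared promoter of Tnfaip1 and Ift20 the Santa Cruz peak ended on the base before the Novus peak (gap 0 bp). The gap was 3 bp at Bard1, which encodes the partner of BRCA1, and at Tbpl1, 5 bp at Rnf103 and 6 bp at Pdia6, which encodes a protein disulfide isomerase. At such places both antibodies marked the same promoter, and the lists differ by the position of narrow peaks.

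Of the 176 peaks with a gap under 1 kb, 87 lay on the opposite side of the start from their Santa Cruz neighbour and 89 on the same side, and for 161 the neighbour was itself within 1 kb of a start. Among the farthest peaks were those at Wls, which encodes the carrier of Wnt proteins (2058 kb), at Acot9 (1312 kb), at Vopp1 (815 kb) and at Dach2 (582 kb). The share with a gap under 10 kb was 34.5% upstream and 37.7% downstream of the start, and 36.0% for CpG island-like peaks and 37.3% for the others.

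**Figure D4:**
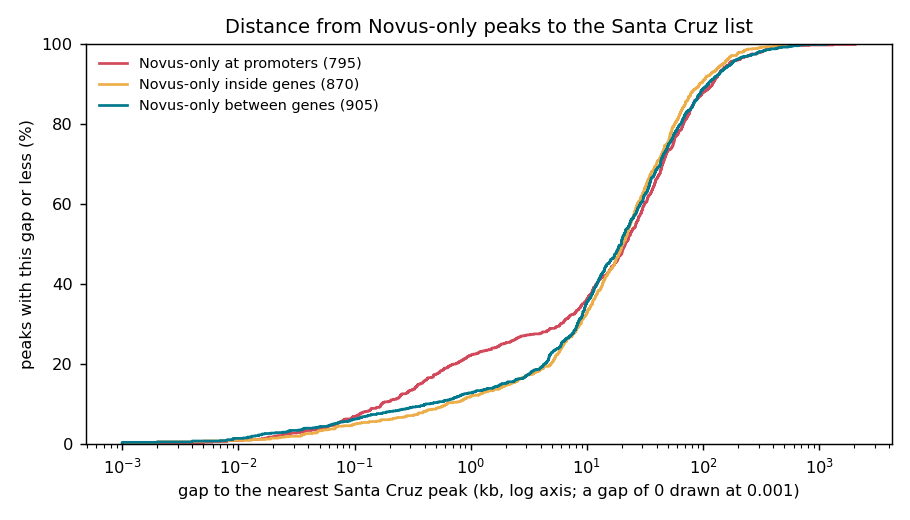
Cumulative share of Novus-only peaks (y axis, percent) with a gap to the nearest Santa Cruz peak of a given length or less (x axis, kb, log scale, a gap of 0 drawn at 0.001 kb). The line of the 795 promoter peaks (red) is at 22.1% at 1 kb, above the 870 peaks inside genes (yellow) and the 905 between genes (teal), of which 104 and 116 have a gap under 1 kb, and the 3 lines come together near 10 kb.

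The peak centres lay within 1 kb of a start of 874 of 22225 annotated protein-coding gene symbols (3.93% of all genes). By the same rule, common promoter peaks were at 283 genes (1.27%) and Santa Cruz-only promoter peaks at 2446 (11.0%). A peak within 1 kb of starts of 1 gene was the rule (696 peaks), and 99 lay near starts of more than 1 gene. Of the 874 genes, 190 also had a Santa Cruz-only promoter peak (21.7% of the Novus-only genes and 7.77% of the Santa Cruz-only genes) and 17 also had a common one (1.95% and 6.01%). The gene lists that follow were described by their counts beside the 3.93% of all genes, without a test. Where a list had more than 4 genes with such a peak, at most 4 of those with the peak closest to a start are named, and some genes are not reported here.

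Of the lists of protein synthesis, the ribosomal protein and tRNA synthetase genes had the larger shares. Of 82 ribosomal protein genes, 10 had a Novus-only promoter peak (12.2%), among them Rpl10 (17 bp downstream of the start), Rpl15 (57 bp upstream), Rpl30 (66 bp downstream) and Rpl26 (88 bp upstream). Santa Cruz-only peaks were at 20 ribosomal protein genes (24.4%, beside 11.0% of all genes), including Rpl15 and Rpl30. The Novus peaks of Rpl15 and Rpl30 had a Santa Cruz peak 0.0150 and 0.163 kb away, while the gap was 169.6 kb at Rpl10. Of 37 aminoacyl-tRNA synthetase genes 4 had a peak (10.8%): Yars, Lars, Sars and Pars2. The first 3 peaks were 31, 34 and 40 bp downstream of the start and that of Pars2, the mitochondrial prolyl enzyme, 175 bp upstream. A Santa Cruz-only peak was found at 7 of the 37 genes (18.9%). Mitochondrial ribosomal proteins (2 of 76, Mrpl14 and Mrpl38) and translation initiation and elongation factors (2 of 66, Eif2s3x and Eif3d) had 2.63% and 3.03%, near the 3.93% of all genes.

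Of the lists of RNA processing and transcription, the splicing list had the largest share. Of 80 spliceosome and splicing factor genes, 9 had a peak (11.2%), with Hnrnpr (24 bp upstream), Srsf5 (42 bp upstream), Hnrnpk (74 bp upstream) and Lsm3 (128 bp upstream) closest to the start. Common peaks were at 5 (6.25%) and Santa Cruz-only peaks at 19 (23.8%) of these 80 genes, beside 1.27% and 11.0% of all genes. The list of general transcription factors and polymerase subunits had 5 of 104 (4.81%), with Med12, Tbpl1, Taf4b and the polymerase III subunit gene Polr3g nearest, the last on the promoter that it shares with Mblac2. Dhx32 was the single gene among 54 RNA helicases (1.85%) and Nup153, a protein of the nuclear basket, the single gene among 55 of the nuclear pore and transport (1.82%).

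Protein degradation was covered by 3 lists. The list of symbols that start like proteasome subunits had 7 of 50 (14.0%), with Psma1 (4 bp upstream of the start), Psmb9, the inducible catalytic subunit of the immunoproteasome (33 bp upstream), Psmc4, an ATPase of the cap (60 bp upstream), and Psmc3ip (133 bp upstream), which in spite of its symbol acts in meiotic recombination and is no subunit. As the list goes by symbol alone, others of its genes may be no subunits either. Santa Cruz-only peaks were at 9 genes of this list, Psma1, Psmb9 and Psmc3ip included. Ubiquitin-conjugating enzymes had 4 of 36 (11.1%), Ube2q2, Ube2w, Ube2v2 and Ube2e1, and ubiquitin-specific proteases 5 of 51 (9.80%), with Usp2, Usp46, Usp47 and Usp11 nearest. Beside 11.0% of all genes, Santa Cruz-only peaks were at 7 ubiquitin-conjugating enzyme genes (19.4%) and 4 ubiquitin-specific protease genes (7.84%).

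The list of chromatin regulators had 12 of 130 genes (9.23%). It goes by symbol, and the 12 include Setd3, named above as a histidine methyltransferase of actin. The peaks nearest to a start were at Chd9, a chromodomain remodeller (7 bp upstream, gap 133 kb), the histone deacetylase gene Hdac2 (46 bp downstream, gap 0.204 kb), Hdac5 (87 bp upstream, gap 64.9 kb) and Suv39h2, which encodes a methyltransferase of histone H3 (87 bp upstream, gap 43.8 kb). Santa Cruz-only peaks were at 35 genes of the list (26.9%, beside 11.0% of all genes). Zinc finger genes named Zfp had 30 of 367 (8.17%), with Zfp637, Zfp708, Zfp866 and Zfp69 at 3, -6, -26 and 26 bp, and Santa Cruz-only peaks at 48 (13.1%). The cohesin, condensin and CTCF list had 2 of 30 (6.67%), Stag2, a subunit of cohesin, and Pds5b.

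Of 54 genes of topoisomerases and double-strand break repair, 6 had a Novus-only promoter peak (11.1%) and 7 a Santa Cruz-only one (13.0%). The shares of all genes were 3.93% and 11.0%. Blm, Bard1 and Nbn had their peaks at 0, -61 and 486 bp from the start. Lig4 also had one, and so did Top2b, the gene of the protein that was precipitated, which is named here after its value was seen. The Top2b peak lay 978 bp downstream of the start (chr14:17198574-17198768), 30.2 kb from a Santa Cruz peak, whereas those of Bard1 and Lig4 were 0.00300 and 0.0110 kb from one.

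Cell cycle genes had 7 of 56 (12.5%), with Cdk5rap2, a centrosomal protein gene caught by its symbol (24 bp upstream), Ccna2, the cyclin of S phase and mitosis entry (25 bp upstream), Cdk20 (183 bp upstream) and Ccng2 (232 bp downstream) nearest. Of these 56 genes, 12 had a Santa Cruz-only peak (21.4%, beside 11.0% of all genes). Genes of DNA replication had 2 of 47 (4.26%), Mcm7 and Mcm5, the latter 840 bp upstream of the start and 0.0590 kb from a Santa Cruz peak. Replication-dependent histones had 1 of 67 (1.49%), Hist2h2ab. Cell death and survival genes had 2 of 43 (4.65%), Htra2 and Cflar, the latter a decoy that blocks caspase 8 (89 bp downstream, gap 0.0780 kb).

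Counts for genes of energy supply, protein folding, trafficking and kinase cascades were small and are given beside the 3.93% of all genes. The respiratory chain and ATP synthase list had 6 of 100 (6.00%), with Ndufv3, Ndufa10, Cox17 and Ndufb3 nearest, of which Cox17 encodes a copper chaperone. Heat shock proteins and chaperones had 5 of 84 (5.95%), with Cct6b, Dnajc27, Dnajc11 and Dnajc13 nearest. The list of symbols that start like Rab and Arf GTPases, not all of which need be GTPases, had 7 of 97 (7.22%), with Arl15, Rab32, Rab2b and Rab2a nearest. The mitogen-activated protein kinase cascade had Map2k4, a kinase upstream of JNK, as 1 of 48 (2.08%).

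Genes of T-cell identity and signalling had few Novus-only promoter peaks, at shares near that of all genes. T-cell receptor signalling had 3 of 57 (5.26%): Lck, the kinase bound to the tails of CD4 and CD8 (41 bp downstream, gap 0.0730 kb), Pik3r1, the regulatory subunit of PI3 kinase (239 bp downstream, gap 2.01 kb), and Pdk1, which by this symbol is a kinase of pyruvate dehydrogenase (82 bp upstream). Santa Cruz-only promoter peaks were at 26 of these 57 genes (45.6%, beside 11.0% of all genes). T-lineage transcription factors had 3 of 53 (5.66%), namely Gata3 (609 bp downstream, gap 0.216 kb), Tcf12, which encodes the E protein HEB (778 bp downstream, gap 22.1 kb), and Bach2 (862 bp downstream, gap 0.284 kb), and Santa Cruz-only peaks were at 20 (37.7%). These counts moved with the promoter limit: T-lineage transcription factors had 0 genes with a limit of 500 bp, and T-cell receptor signalling had 5 with a limit of 2.5 kb.

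The list of the T-cell receptor, coreceptors and V(D)J recombination, which also holds the defining thymocyte markers, had 1 of 25 genes (4.00%). This was Cd1d1, which presents lipids to NKT cells (159 bp downstream, gap 0.813 kb). Santa Cruz-only peaks were at 8 genes of this list (32.0%, beside 11.0% of all genes). Cytokine and chemokine receptors and homing had 4 of 36 (11.1%), the receptor chains Il10rb and Ifnar2 and the integrins Itga4 and Itgb2. Of these 36 genes, 10 had a Santa Cruz-only peak (27.8%). Immediate early genes had 0 of 38 with Novus-only promoter peaks, in a list too short to set this apart from the 3.93% of all genes. Santa Cruz-only promoter peaks were at 8 of them (21.1%, beside 11.0% of all genes). Markers of B cells, thymic epithelial cells and myeloid cells had 0 of 15 each, beside 3.93% of all genes. Their Santa Cruz-only peaks were at 2 (13.3%), 2 (13.3%) and 0 genes, beside 11.0% of all genes. In lists this short a count of 0 is near the share of all genes, so that these counts give no check of the cell type.

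Olfactory and vomeronasal receptors, families best known from other tissues, held nearly no peak. They had 1 of 1437 (0.0696%), Olfr1368, beside 3.93% of all genes, and Santa Cruz-only peaks at 5 (0.348%, beside 11.0%). Hox genes had 0 of 39, in a list too short to set this apart from the 3.93% of all genes, and Santa Cruz-only peaks at 2 (5.13%). In all, 21 of the 33 lists had a share above that of all genes and 5 had no gene with a peak, and 143 of the 874 genes were in any list.

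**Figure D5:**
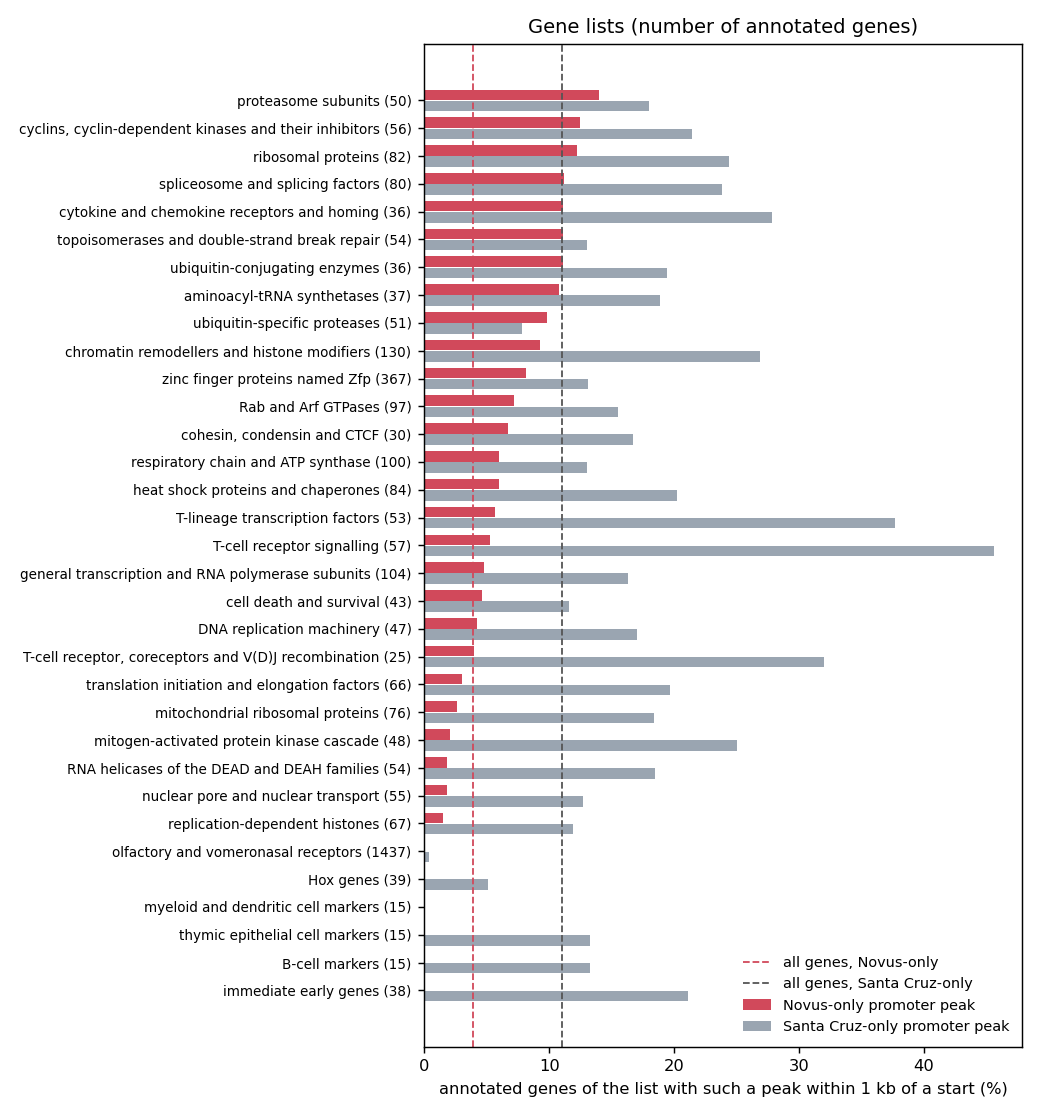
Share of the annotated genes of each list (x axis, percent, number of genes in brackets) with a Novus-only (red) or Santa Cruz-only (grey) peak within 1 kb of a start. Dashed lines mark the shares of all protein-coding genes, 3.93% and 11.0%, and the 3 longest red bars are the proteasome (14.0%), cell cycle (12.5%) and ribosomal protein lists (12.2%).

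A single peak per gene was usual (854 genes), and 20 genes had more than 1. Pdcd10, which encodes a protein of the blood vessel disorder of cerebral cavernous malformations, had 3, of which 2 were shared with Serpini1, the gene of neuroserpin on the opposite strand. These 3 peaks lay 0.903, 0.119 and 0.112 kb from the same Santa Cruz peak (chr3:75360967-75361153), 2 on the Pdcd10 side and 1 on the Serpini1 side of it. Krit1, a further gene of the same disorder, and its divergent neighbour Ankib1 shared 2 peaks, with a Santa Cruz peak 0.0240 kb from the nearer one.

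Both sides of the start were marked at several genes. Setd3 had a peak 165 bp upstream and one 305 bp downstream, Frmd6 71 bp upstream and 157 bp downstream, Rab12 139 bp upstream and 458 bp downstream, Ube3a, the ubiquitin ligase gene of Angelman syndrome, 319 bp upstream and 666 bp downstream, and Phip 342 bp upstream and 974 bp downstream. Each distance is from the annotated start nearest to that peak, and at Setd3, Rab12 and Phip the upstream and the downstream peak have different nearest starts. The nearest Santa Cruz peak was 0.640 and 0.0690 kb away at Setd3 but 27.7 and 27.5 kb at Frmd6 and 168 and 169 kb at Phip. In Ube2w both peaks were downstream, by 114 and 931 bp. The other genes with 2 peaks were Syt14, Magi3, Ppa2, Akap13, Ibtk, Fcho2, 1110020G09Rik, Scaf8, Ptpn2 and Sgms1.

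The peaks were spread over the chromosomes, from 65 on chromosome 2 and 62 on chromosome 3 to 20 on chromosome 16, and 0 on chromosome Y. Per 100 protein-coding genes there were 5.87 on chromosome 3, 5.11 on chromosome 12 and 5.03 on chromosome 18, against 2.25 on chromosome X and 2.32 on chromosome 7.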

How the data were processed

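TOP2B was mapped by ChIPmentation in thymocytes, with 1 library per antibody. Per the submitters' processing notes and the study's methods, the authors used Bowtie 1.2.0 on mm9, then HOMER on each library with its settings for factors and an enrichment of 10-fold over IgG. The deposited unit is a position (chromosome, start, end), and the deposited score column holds 0 for every peak. A repeated row of the Santa Cruz list was dropped. Depth per library and per peak is unknown from the lists.

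Starts of 51720 protein-coding transcripts came from GENCODE M1, and sequence from NCBIM37 (mm9). Overlap means at least 1 shared base. The side, the start in the window, base composition (500 bp), an opposite start within 1 kb and 17 motifs (peak width) were compared with common and with Santa Cruz-only promoter peaks by 2-sided Fisher's exact tests, with Benjamini-Hochberg adjustment over 44 tests and a threshold of 0.05. Shares have Clopper-Pearson (exact) intervals at 95%, for counting error alone. Neighbouring peaks can share a promoter and are not independent. Tests were checked on simulated data.

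Named were the genes of each list (at most 4, closest to a start), genes with more than 1 peak, the 5 closest to and the 5 farthest from a Santa Cruz peak, the 3 highest and 3 lowest in GC, CTCF matches without mismatch (at most 4) and the 3 on either side of the 1 kb limit. Some genes that this rule names are not reported here. Peaks, gene lists and tests were chosen with earlier results of these data known, and many lists go by symbol alone. Alternatives were the promoter limit, the gap to Santa Cruz, the start used, 1 peak per gene, windows and thresholds. Python 3.11.15, numpy 2.4.6, scipy 1.17.1 and matplotlib 3.10.9 were used.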

Additional observations from a re-analysis of the deposited data

How the results depend on the processing

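The larger shares of CpG island-like sequence and of a GC content of at least 60% in Novus-only than in Santa Cruz-only promoter peaks kept their direction and passed under every alternative run, by 9.87 to 24.2 and by 10.1 to 20.9 percentage points. The number of peaks ranged from 619 to 883.

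With a promoter limit of 500 bp, the difference from Santa Cruz-only peaks in windows that hold the start was 2.49 points and no longer passed, the difference from common peaks in CpG island-like sequence was -1.33 points, and 0 motifs passed against Santa Cruz-only peaks. With a limit of 2.5 kb, the difference from Santa Cruz-only peaks in opposite starts was 3.53 points and passed (adjusted p = 0.00992, Fisher's exact test), and 1 motif, the CTCF core, passed against common peaks. Without the peaks that have a Santa Cruz peak within 1 kb, the share with a gap under 10 kb was 18.3%, which this alternative sets by its construction, and the difference from common peaks in windows that hold the start was 0.499 points. With the 5′-most start of each gene, the difference from Santa Cruz-only peaks was -7.37 points for an upstream centre, which passed the exact test (adjusted p = 0.00827), and 4.03 points for the start in the window, which did not. With 1 peak per gene the latter was 5.40 points and did not pass. With composition over the peak width, the difference from common peaks in CpG island-like sequence was -0.145 points. With motifs over 500 bp, 1 motif passed against common and 2 against Santa Cruz-only peaks. The cause of these changes was not tested.

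Of 66 repeats of the counts by gene list with other promoter limits, 57 stayed within 1.5 times and 9 moved beyond. With 500 bp these were replication-dependent histones (0 genes), ubiquitin-specific proteases (3), DNA replication (1), T-lineage transcription factors (0) and olfactory and vomeronasal receptors (0), and with 2.5 kb RNA helicases (2), replication-dependent histones (3), the mitogen-activated protein kinase cascade (2) and T-cell receptor signalling (5). No paired analysis was possible because each antibody has 1 library and the results come from no test between replicates, and for the same reason leaving out a library gives no value. The lists hold no heights, so that a weak peak and an absent one are alike in them.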

Other observations

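Among the 8 families of gene symbols with at least 100 members, those of transmembrane proteins named Tmem had a Novus-only promoter peak at 15 of 214 genes (7.01%) and those named Zfp at 30 of 367 (8.17%). Solute carriers named Slc had one at 9 of 353 (2.55%), genes named Fam at 11 of 252 (4.37%) and genes named Ccdc at 6 of 142 (4.23%). Predicted genes with a Gm symbol had one at 15 of 2024 (0.741%), olfactory receptors named Olfr at 1 of 1113 (0.0898%) and vomeronasal receptors named Vmn at 0 of 327. Santa Cruz-only promoter peaks were at 41 Tmem genes (19.2%), 35 Slc genes (9.92%) and 40 Gm genes (1.98%). Of all genes, 3.93% had a Novus-only and 11.0% a Santa Cruz-only promoter peak.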
